A study of Mus musculus with 27 samples.

Results

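The 10 genes, of 17655 listed in the deposited tables, that are described here are the Wnt receptor ligases *Rnf43* and *Znrf3*, the Wnt targets *Axin2*, *Lgr5* and *Tbx3*, the pericentral enzymes *Glul* and *Oat*, the endothelial signals *Rspo3* and *Wnt2*, and the planar polarity cadherin *Celsr1*. They were chosen by symbol, whatever their values, and followed through all 27 livers. All 10 were listed in each of the 4 tables and passed the filter on low counts in each of the 17 comparisons.

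In the liver lobule, endothelial cells of the central vein secrete Wnt ligands and the R-spondin *Rspo3*. R-spondins bind the receptors of the *Lgr* family and take the ubiquitin ligases *Rnf43* and *Znrf3* off the cell surface, and these ligases otherwise remove Frizzled receptors. Hepatocytes next to the central vein therefore hold stabilised beta-catenin and express glutamine synthetase (*Glul*) and ornithine aminotransferase (*Oat*), while *Axin2*, *Lgr5*, *Tbx3*, *Rnf43* and *Znrf3* are themselves targets of the pathway.

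RNA from whole liver was sequenced in 27 mice, 3 in each of 9 groups. Every mouse, controls included, carried *Kdm5b* fl/fl alleles, whose deletion removes a histone H3K4 demethylase. WT mice received the AAV8-control vector, KO mice AAV8-CMV-Cre, which is not restricted to one cell type, and HepKO mice AAV8-TBG-Cre, whose promoter is active in hepatocytes. The WDA groups, fed a Western diet and given alcohol, held females with each of the 3 vectors and males with the control or CMV-Cre vector, all labelled with 8 weeks of WDA. The resolution (Res) groups held WT and KO mice of either sex, labelled with 4 weeks of resolution after 16 weeks of WDA. The labels name the vector before WDA in the WDA groups, and between WDA and resolution in the Res groups. According to the paper, chow and plain water replaced the diet and alcohol during resolution. Sample titles of all WDA libraries share a prefix, and those of all Res libraries share a different prefix. The prefixes were read here as separate experiments, which the labels do not state. Stage, length of feeding, time of the vector, diet and experiment therefore cannot be told apart. Each library is 1 liver, and because whole tissue was sequenced, fewer cells of a type and less RNA per cell cannot be told apart. The labels used here give no ages.

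On GRCm38.p6, RefSeq places *Glul* at chr1:153899929-153909723, *Tbx3* at chr5:119670534-119684724, *Wnt2* at chr6:17985474-18032772 and *Oat* at chr7:132557475-132576398. *Rspo3* lies at chr10:29453106-29535867 and *Lgr5* at chr10:115450314-115587780 on the same chromosome. *Znrf3* (chr11:5276329-5444847), *Rnf43* (chr11:87663087-87735539) and *Axin2* (chr11:108917828-108950783) share another, and *Celsr1* lies at chr15:85898758-86034223. The RefSeq promoter table held 5 of the 10 members (*Glul*, *Oat*, *Wnt2*, *Axin2* and *Rnf43*, the last with 2 starts), and the start it gives for *Axin2* lies inside the span above. The 250 bases before the start are printed 5′ to 3′ for *Rnf43*, whose 3 lowest values of the series are in KO Res females, for the 2 pericentral enzymes that fell together in single livers (*Glul*, *Oat*) and for *Axin2*, the usual reporter of the pathway. Capitals mark the GC box (GGGCGG or its complement CCGCCC) and the CCAAT box (CCAAT or ATTGG).
Rnf43, chr11:87662837-87663086, plus strand: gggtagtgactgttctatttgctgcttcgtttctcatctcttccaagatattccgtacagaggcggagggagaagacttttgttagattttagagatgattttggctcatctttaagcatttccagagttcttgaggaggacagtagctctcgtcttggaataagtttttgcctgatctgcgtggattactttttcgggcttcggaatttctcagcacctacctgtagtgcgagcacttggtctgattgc
Axin2, chr11:108920099-108920348, plus strand: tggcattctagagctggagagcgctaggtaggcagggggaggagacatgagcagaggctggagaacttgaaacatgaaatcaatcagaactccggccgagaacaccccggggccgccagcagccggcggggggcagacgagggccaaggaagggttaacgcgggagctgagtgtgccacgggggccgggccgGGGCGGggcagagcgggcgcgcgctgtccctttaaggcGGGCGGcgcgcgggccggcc
Glul, chr1:153899679-153899928, plus strand: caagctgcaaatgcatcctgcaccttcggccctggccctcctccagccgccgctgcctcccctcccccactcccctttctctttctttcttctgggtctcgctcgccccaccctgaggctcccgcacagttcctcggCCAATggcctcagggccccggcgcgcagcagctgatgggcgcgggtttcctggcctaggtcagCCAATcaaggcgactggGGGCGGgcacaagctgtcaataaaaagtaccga
Oat, chr7:132576399-132576648, minus strand: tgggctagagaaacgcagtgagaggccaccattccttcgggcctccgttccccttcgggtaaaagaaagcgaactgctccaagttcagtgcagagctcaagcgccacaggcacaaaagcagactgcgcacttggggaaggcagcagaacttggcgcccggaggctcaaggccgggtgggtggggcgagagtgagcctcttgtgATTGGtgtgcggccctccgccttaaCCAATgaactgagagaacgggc
Both strands were searched, and the motifs do not overlap one another in these windows. *Glul* held 1 GC box and 2 CCAAT boxes, *Oat* 2 CCAAT boxes and *Axin2* 2 GC boxes, while *Rnf43* held none of either at its 2 starts. Of 32851 promoter windows of this length, 32.7% held the GC box and 33.8% the CCAAT box. The core of the TCF/LEF site, CTTTGA, is in 13.8% of all windows and in 0 of the 6 windows of these members, which says only that these letters are absent from the 250 bases. The TATA box, TATAAA, is in 12.4% of all windows and in 0 of the 6. The base composition of the windows differed, with 44.4% G and C for *Rnf43* against 69.2% for *Axin2*.

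Summed counts ranged from 14634580 to 19388257 per library, with a median of 17944535. *Kdm5b*, the targeted gene, averaged 12.0 to 21.5 CPM (read counts scaled to library size) in the KO groups and 17.1 to 26.0 CPM in the WT groups, with log2 fold changes between -0.16 and -0.59 in the 4 comparisons of KO with WT (adjusted p of 0.109 or more, edgeR). In HepKO females its log2 fold change was -0.98 (adjusted p = 0.347, edgeR). A gene-level count does not separate the floxed part from the rest of the transcript.

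A set of 5 livers stood apart. Summed over 10 cholangiocyte markers, they reached 529 CPM (WT WDA female 7), 608 CPM (KO WDA male 17), 284 CPM (WT Res female 13), 236 CPM (KO Res male 5) and 197 CPM (WT Res male 9), while the other 22 livers had 33.6 to 132 CPM. All 10 markers had counts in these 5 livers, whereas *Cftr* was at 0 in 7 of the other 22. Their TMM scaling factors, from 1.08 to 1.36, were 5 of the 6 highest of the series. No KO female and no HepKO female was among the 5. KO Res male 5 further showed female-biased liver transcripts, with *Cyp2b9* at 131 CPM against 1.64 to 9.20 CPM in the other 5 Res males and 322 to 565 CPM in Res females, and the lowest Y-linked *Ddx3y* of the Res males (37.8 CPM against 52.9 to 80.4 CPM). Its male-biased *Mup20* was 4136 CPM, against 4460 to 7119 CPM in the other 5 Res males and 41.4 to 480 CPM in Res females. *Cyp2b9* was also at 54.1, 94.4 and 31.1 CPM in KO WDA males 16, 17 and 18, against 3.93 to 16.7 CPM in WT WDA males. The cause was not tested. Results are therefore given with and without the 5 livers where they change.

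Compared per length, in the deposited FPKM, the members fell into tiers. *Oat* had the highest group means, 605 to 1053 FPKM, followed by *Glul* with 305 to 429 FPKM. *Tbx3* averaged 3.12 to 7.33 FPKM and *Rnf43* 1.28 to 5.51 FPKM over the 9 groups. *Axin2* (1.74 to 2.90 FPKM), *Rspo3* (1.84 to 2.54 FPKM), *Wnt2* (1.46 to 2.38 FPKM), *Znrf3* (1.51 to 2.28 FPKM) and *Celsr1* (1.2 to 3.87 FPKM) had overlapping ranges. *Lgr5*, with 0.703 to 1.64 FPKM, had the lowest mean over all 27 livers (1.09 FPKM), although its range overlapped those of *Wnt2*, *Znrf3*, *Rnf43* and *Celsr1*. Counts per library were correspondingly small for *Wnt2* (23 to 107 reads), *Lgr5* (26 to 207 reads) and *Rspo3* (47 to 112 reads), so these 3 carry the largest counting error.

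**Figure D1:**
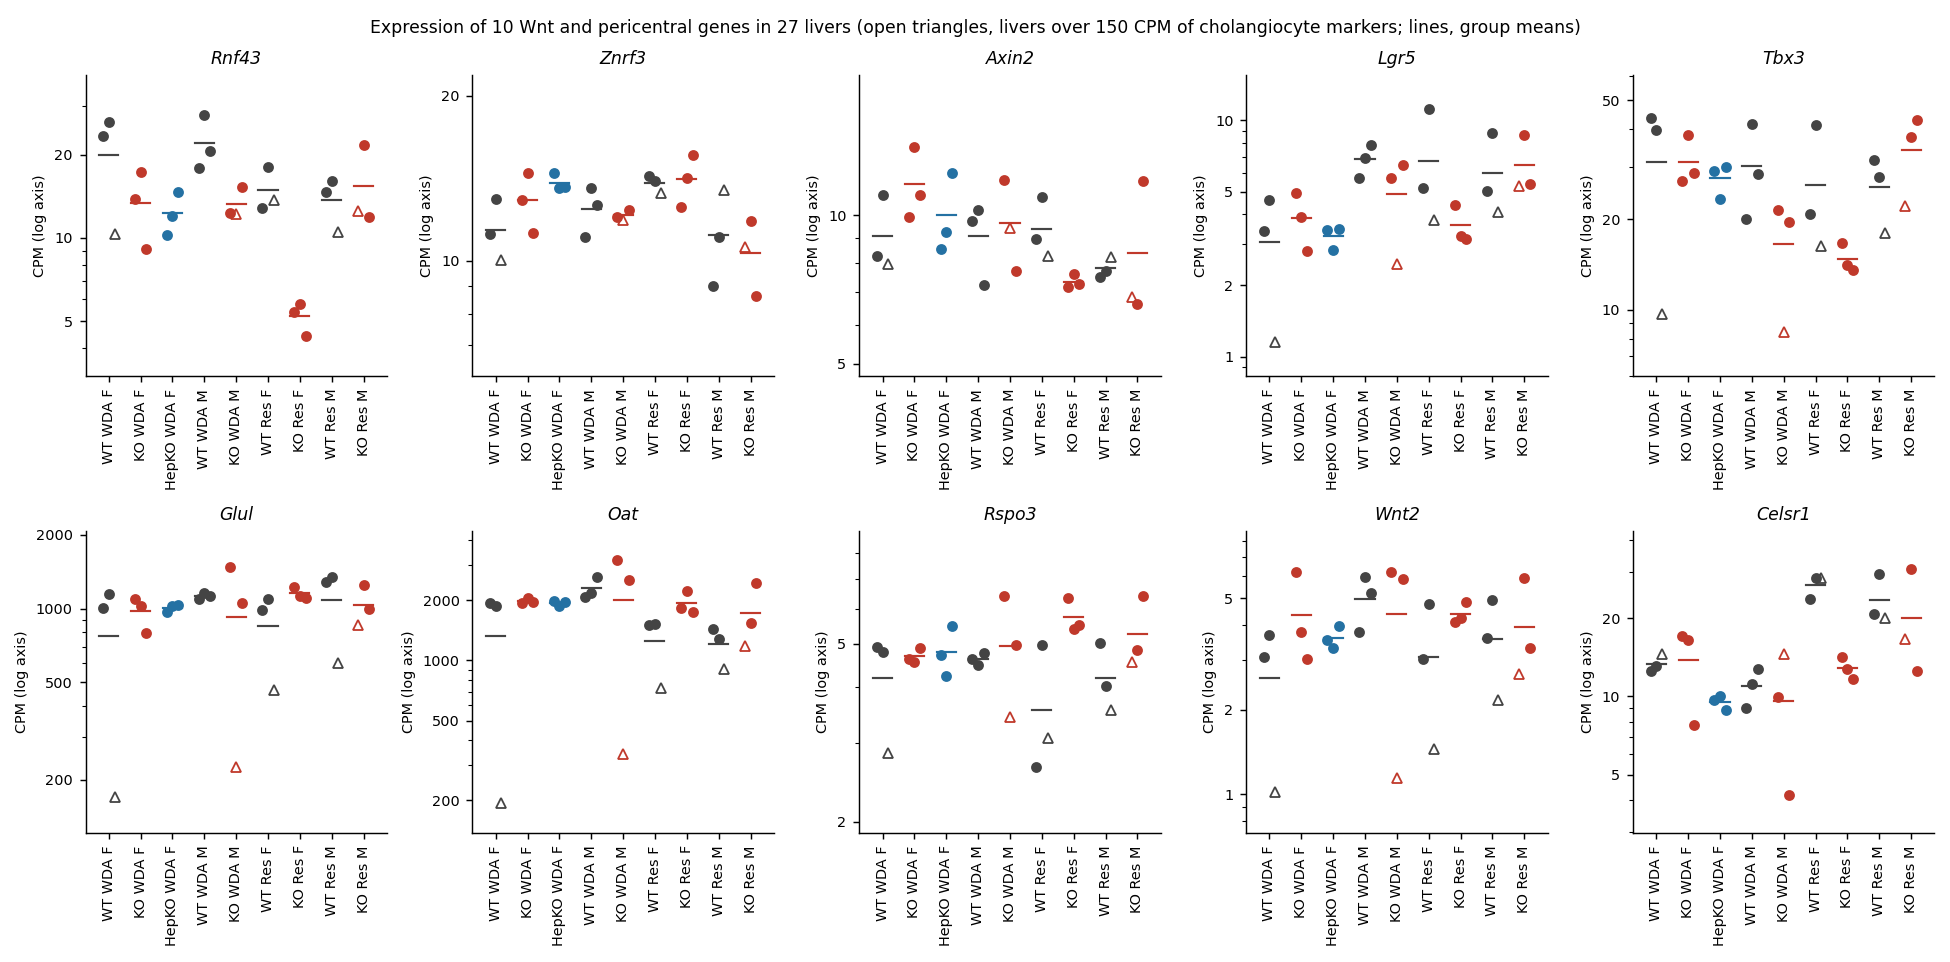
CPM on a log axis in each of 27 livers for the 10 members, by group (3 mice each; grey WT, red KO, blue HepKO; lines, group means). The lowest *Rnf43* values are the 3 KO Res females, at 4.44 to 5.80 CPM, and open triangles mark the 5 livers over 150 CPM of cholangiocyte markers, which hold the lowest *Glul*, *Oat* and *Wnt2* of their groups.

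*Rnf43*, which encodes a ligase that clears Frizzled from the membrane, had its lowest values in KO females after resolution. In WT Res females it measured 12.8, 18.1 and 13.7 CPM in mice 1, 12 and 13, and in KO Res females 5.4, 5.80 and 4.44 CPM in mice 2, 3 and 4. The 2 groups did not overlap, and the 3 KO values were the lowest of all 27 livers. The log2 fold change was -1.56 ± 0.19 (SE), a level 0.340 times that of WT, with an adjusted p = 0.0794 by edgeR's quasi-likelihood test. With the DESeq2 Wald test the adjusted p was 2.31e-07, and without WT Res female 1 the edgeR adjusted p was 0.0131, so the call depended on the test and on 1 mouse.

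The same gene fell with stage in KO females. In KO WDA females it measured 13.8, 17.3 and 9.10 CPM in mice 1, 2 and 3, all above the KO Res females. The log2 fold change of Res against WDA was -1.36 ± 0.24 (adjusted p = 0.00537, edgeR), where 20.4% of all genes tested were called. Summed cholangiocyte markers overlapped between the 2 groups, 33.6 to 42.4 CPM on WDA and 35.7 to 44.3 CPM after resolution. Summed hepatocyte markers did not overlap, 102791 to 128953 CPM against 161499 to 192098 CPM, and 4 of 10 macrophage and 3 of 10 hepatocyte markers were called higher beside 10.2% of all genes, whose part in the *Rnf43* value was not tested. In WT males the log2 fold change of *Rnf43* with stage was -0.67 ± 0.20 (adjusted p = 0.0641), from 17.8, 27.8 and 20.6 CPM to 14.6, 16.1 and 10.5 CPM without overlap, and DESeq2 gave an adjusted p of 0.0234. In WT females it was -0.41 ± 0.34 (adjusted p = 0.648) and in KO males 0.22 ± 0.26 (adjusted p = 0.874), with overlapping groups in both. Averaged over sex and vector in 24 mice it was -0.56 ± 0.15 (adjusted p = 0.00934), where 29.8% of all genes were called.

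On WDA, *Rnf43* was at lower means in every Cre group, and none of these differences passed the test. WT WDA females had 23.3, 26.1 and 10.4 CPM, the last being mouse 7, one of the 5 livers that stood apart. HepKO females had 10.2, 12.0 and 14.6 CPM, and the log2 fold change against WT was -0.70 ± 0.33 (adjusted p = 0.536). Without WT WDA female 7 it was -1.01 ± 0.15 (adjusted p = 0.0124, 2.80% of genes called), an alternative chosen after seeing the data. KO WDA females, at 13.8, 17.3 and 9.10 CPM, overlapped WT, with a log2 fold change of -0.58 ± 0.37 (adjusted p = 0.978), and of -0.88 ± 0.24 without that mouse (adjusted p = 0.726). KO WDA males had 12.3, 12.2 and 15.3 CPM, below all 3 WT males, with a log2 fold change of -0.72 ± 0.19 (adjusted p = 0.588).

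In Res males the groups overlapped. KO Res males had 12.5, 21.7 and 11.9 CPM against 14.6, 16.1 and 10.5 CPM in WT, a log2 fold change of 0.18 ± 0.26 (adjusted p = 1). The difference of the KO effect between Res females and Res males, taken as females minus males, was -1.72 ± 0.35 (adjusted p = 0.265, edgeR), and 11.5% of genes had an unadjusted p under 0.05 there. It reached an adjusted p of 0.0123 with DESeq2 and 0.0392 without WT Res female 1. Without KO Res male 5 it was -1.84 ± 0.36 (adjusted p = 0.306).

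*Znrf3*, the paralog of *Rnf43*, passed no test. Its group means lay between 10.3 ± 1.61 and 14.1 ± 1.54 CPM (SD, n = 3), and its smallest unadjusted p over the 17 comparisons was 0.0164. In KO Res females, where *Rnf43* was lowest, *Znrf3* measured 12.6, 14.2 and 15.6 CPM against 14.3, 14 and 13.3 CPM in WT, with a log2 fold change of -0.02 ± 0.13. An unadjusted p under 0.05 was seen for *Znrf3* in males against females (log2 fold change -0.18 ± 0.08, adjusted p = 0.138) and for the difference of the stage effect between the sexes (females minus males, 0.40 ± 0.15, adjusted p = 0.506).

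**Figure D2:**
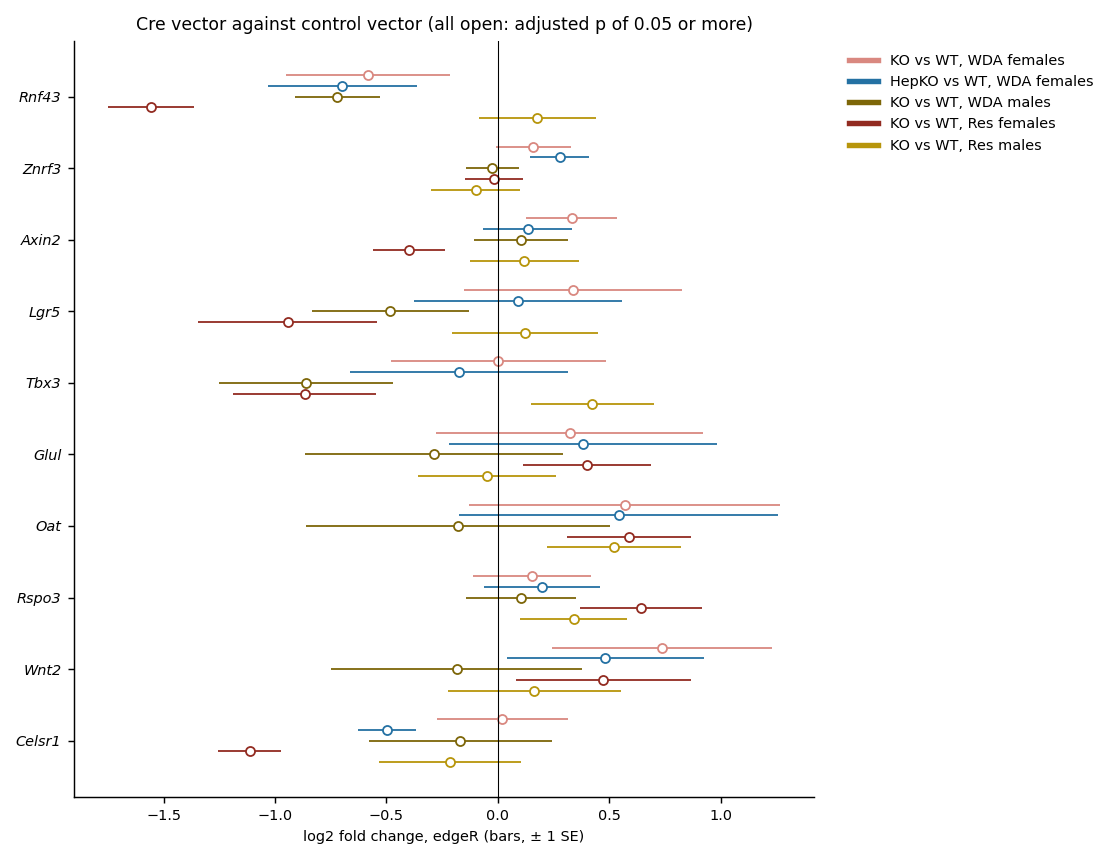
Log2 fold change (edgeR, bars ± 1 SE, 3 mice against 3) of the 10 members for the Cre vectors against the control vector in 5 comparisons. Every point is open, since no adjusted p was under 0.05, and the farthest from 0 are *Rnf43* (-1.56) and *Celsr1* (-1.11) in Res females.

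*Axin2*, which encodes a scaffold of the beta-catenin destruction complex and is a direct target of the pathway, fell with stage in KO females. It measured 9.90, 13.8 and 11.0 CPM in KO WDA females and 7.16, 7.60 and 7.25 CPM in KO Res females, with no overlap. The log2 fold change was -0.66 ± 0.16 (adjusted p = 0.0221, edgeR). This call did not hold in 4 of the 6 fits that each left out 1 mouse (KO WDA female 2, or KO Res female 2, 3 or 4; adjusted p from 0.0539 to 0.0749), and the adjusted p was 0.0509 when the spread was taken from all 9 groups. In Res females the KO effect on *Axin2* was -0.40 ± 0.16 (adjusted p = 0.242), with WT at 8.96, 10.9 and 8.26 CPM. Over all 24 mice the stage effect was -0.25 ± 0.11 (adjusted p = 0.0790), and it passed without KO Res male 11 (adjusted p = 0.0147).

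*Tbx3*, a repressor of the T-box family that beta-catenin activates in hepatocytes, fell with stage in KO females. It went from 26.8, 38.2 and 28.6 CPM on WDA to 16.7, 14 and 13.6 CPM in Res, a log2 fold change of -1.08 ± 0.16 (adjusted p = 0.00328, edgeR, and 0.116 when the spread was taken from all 9 groups). KO males had 21.6, 8.39 and 19.6 CPM on WDA and 22.1, 37.5 and 42.9 CPM in Res, a log2 fold change of 1.06 ± 0.39 (adjusted p = 0.686). The groups did not overlap in either sex, although the nearest male values, 21.6 and 22.1 CPM, nearly met. Without KO WDA male 17 and KO Res male 5, both among the 5 livers, the change in males was 0.97 ± 0.17 (adjusted p = 0.150).

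In WT mice the stage effect on *Tbx3* was -0.24 ± 0.58 in females (adjusted p = 0.897) and -0.21 ± 0.27 in males (adjusted p = 0.627). Averaged over vectors, the stage effect on *Tbx3* differed between the sexes by -1.08 ± 0.45 (females minus males, adjusted p = 0.603, edgeR), and 0.118% of genes were called. Without the 5 livers the difference was -1.22 ± 0.27 (adjusted p = 0.0325), where 1.42% of genes were called. In Res females the KO effect was -0.87 ± 0.32 (adjusted p = 0.205), with WT at 20.8, 41.3 and 16.3 CPM and overlap with KO. In HepKO females it was -0.17 ± 0.49 against WT (adjusted p = 0.922) and -0.60 ± 0.13 without WT WDA female 7 (adjusted p = 0.0440).

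*Lgr5*, the R-spondin receptor that marks the hepatocytes closest to the central vein, passed no test in the main fits. In WT Res females it measured 5.18, 11.2 and 3.78 CPM, and in KO Res females 4.40, 3.25 and 3.15 CPM, so the groups overlapped (log2 fold change -0.94 ± 0.40, adjusted p = 0.255, edgeR). Over 24 mice the log2 difference of males from females was 0.54 ± 0.23 (adjusted p = 0.142), in a comparison where 11.3% of genes were called. Without the 5 livers the same difference was 0.54 ± 0.17 (adjusted p = 0.0321), and without WT Res female 12, the highest *Lgr5* value of the series, it was 0.69 ± 0.22 (adjusted p = 0.0465). On WDA, the 3 WT males had 5.72 to 7.83 CPM and the 3 WT females 1.16 to 4.63 CPM, the lowest being mouse 7, whereas in Res the mean of WT females was 6.71 ± 3.93 CPM and that of WT males 5.98 ± 2.52 CPM (SD, n = 3).

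Of the pericentral enzymes, *Oat*, which passes ornithine towards glutamate, fell with stage in WT males. It measured 2075, 2182 and 2619 CPM on WDA and 1441, 1283 and 903 CPM in Res, with no overlap. The log2 fold change was -0.91 ± 0.18 (adjusted p = 0.0216, edgeR), in a comparison where 11.0% of genes were called. Without WT Res male 9, one of the 5 livers, it was -0.73 ± 0.13 (adjusted p = 0.00770). The adjusted p was 0.409 when the spread was taken from all 9 groups, and it rose above 0.05 in each of 4 fits that left out a mouse (WT WDA male 19, 20 or 21, or WT Res male 8; 0.0568 to 0.106). In Res mice *Oat* was at a higher mean in KO of both sexes, 1938 ± 256 against 1253 ± 457 CPM in females and 1719 ± 641 against 1209 ± 276 CPM in males (SD, n = 3), and the log2 fold change over both sexes was 0.56 ± 0.21 (adjusted p = 0.614).

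*Glul*, the glutamine synthetase of the last hepatocytes around the central vein, passed in none of the 17 comparisons, with a smallest unadjusted p of 0.118 (edgeR). Its 3 HepKO females had 971, 1023 and 1031 CPM and its 3 WT WDA males 1096, 1162 and 1126 CPM. Groups that held one of the 5 livers spread far more, such as KO WDA males with 1485, 225 and 1051 CPM. In Res females the KO values of 1229, 1130 and 1101 CPM all exceeded the WT values of 992, 1094 and 467 CPM, with a log2 fold change of 0.40 ± 0.29 (adjusted p = 0.473), the lowest WT value being mouse 13.

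The 2 endothelial signals passed no test. *Rspo3*, the R-spondin of the central vein, had 6.34, 5.4 and 5.51 CPM in KO Res females and 2.65, 4.97 and 3.08 CPM in WT Res females, without overlap (log2 fold change 0.64 ± 0.27, adjusted p = 0.256, edgeR). Over both sexes in Res it was 0.49 ± 0.18 (adjusted p = 0.614). *Wnt2* had group means from 2.60 ± 1.4 CPM in WT WDA females to 4.97 ± 1.10 CPM in WT WDA males (SD, n = 3), and its smallest unadjusted p over the 17 comparisons was 0.155. Summed over 8 markers of central vein endothelium, which include *Rspo3* and *Wnt2*, KO Res females had 52.9 to 56.0 CPM and WT Res females 32.8 to 49.6 CPM. The part of that difference in the *Rspo3* values was not tested.

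*Celsr1*, an atypical cadherin of planar cell polarity, rose with stage in WT males. It went from 9.0, 11.1 and 12.8 CPM on WDA to 20.7, 29.5 and 19.97 CPM in Res (log2 fold change 1.11 ± 0.18, adjusted p = 0.0125, edgeR). The adjusted p was 0.0884 when the spread was taken from all 9 groups, 0.0611 without WT WDA male 20 and 0.0544 without WT WDA male 21. WT females went from 12.5, 13.1 and 14.5 CPM to 23.6, 28.5 and 28.6 CPM (1.01 ± 0.15, adjusted p = 0.184), also without overlap. DESeq2 gave an adjusted p of 3.61e-05 in these females. The rise over all 24 mice was 0.76 ± 0.18 (adjusted p = 0.00317), or 1.70-fold.

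In KO females *Celsr1* had 17, 16.5 and 7.76 CPM on WDA and 14.2, 12.7 and 11.6 CPM in Res (log2 fold change -0.10 ± 0.26, adjusted p = 0.810). Against WT Res females the KO values were lower without overlap, by -1.11 ± 0.14 on the log2 scale (adjusted p = 0.0794 by edgeR, 1.98e-06 by DESeq2). The difference of the KO effect between stages, Res minus WDA over both sexes, was -0.57 ± 0.35 (adjusted p = 1), so it was not shown that the vector changed the stage effect. HepKO females had 9.66, 10.05 and 8.88 CPM, all under the WT WDA females, with a log2 fold change of -0.50 ± 0.13 (adjusted p = 0.308). In Res males KO measured 16.6, 30.9 and 12.5 CPM and overlapped WT.

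**Figure D3:**
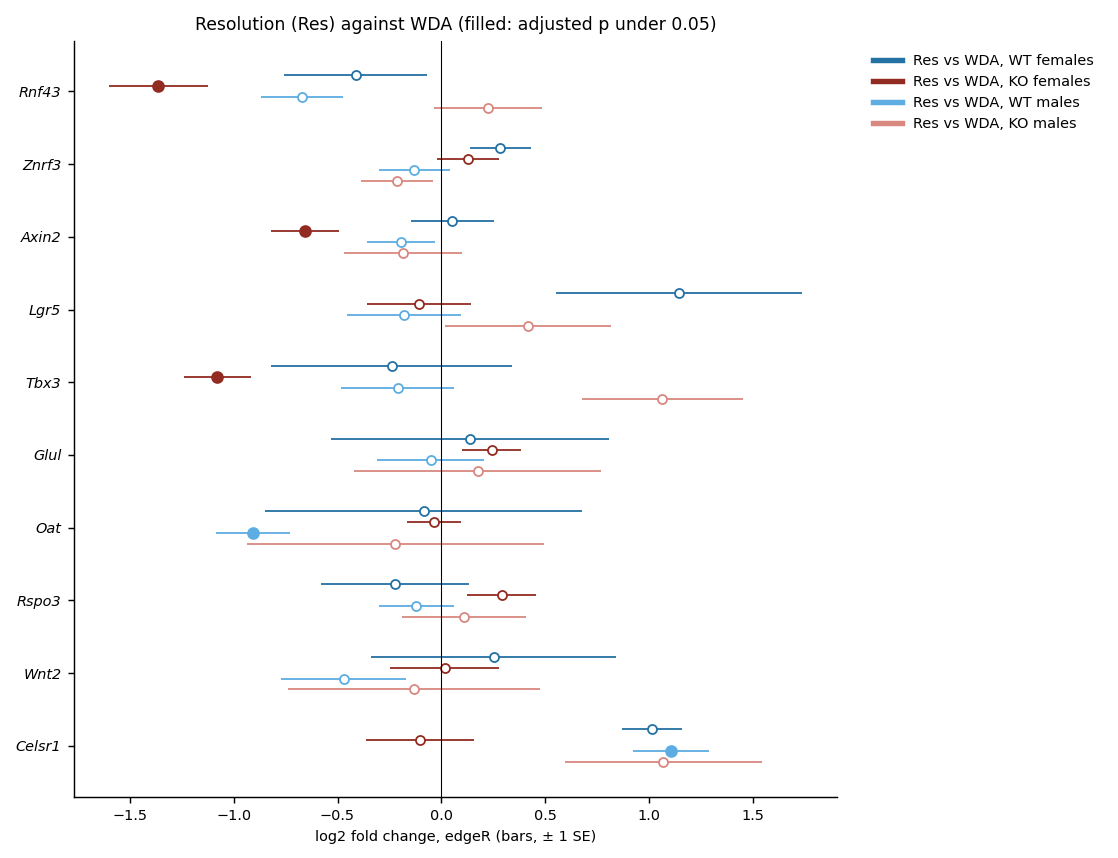
Log2 fold change (edgeR, bars ± 1 SE, 3 mice against 3) of the 10 members for Res against WDA in WT and KO mice of each sex, with filled points for an adjusted p under 0.05. The filled points are *Rnf43*, *Axin2* and *Tbx3* below 0 in KO females, and *Oat* below 0 and *Celsr1* above 0 in WT males.

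Counted over the members, 0 of 10 passed in each of the 5 comparisons of a Cre vector with the control vector by edgeR, where 0% of all genes were called. At an unadjusted p under 0.05, the count was 6 of 10 in Res females (*Rnf43*, *Celsr1*, *Tbx3*, *Axin2*, *Lgr5* and *Rspo3*) beside 19.2% of all genes. It was 1 of 10 in WDA males beside 7.71%, 1 of 10 in HepKO females beside 10.1%, and 0 of 10 in WDA females and Res males beside 3.11% and 1.45%. DESeq2 called 2 of 10 in Res females beside 4.70% of all genes, and 0 in the other 4. The shares of all genes there were 0.0645% in WDA females, 0.137% in WDA males, 0.0555% in Res males and 1.76% in HepKO females. Groups did not overlap for 1 of 10 members in WDA females beside 8.81% of all genes, 1 of 10 in WDA males beside 16.3%, 2 of 10 in HepKO females beside 18.6% and 0 of 10 in Res males beside 4.64%. In Res females 6 of 10 members had groups that did not overlap, beside 26.2% of all genes, with *Rnf43*, *Axin2* and *Celsr1* lower and *Glul*, *Oat* and *Rspo3* higher in KO. In these mice the summed cholangiocyte markers were 35.7 to 44.3 CPM in KO and 51.7 to 284 CPM in WT, and the summed endothelial markers 719.9 to 832 CPM in KO and 534 to 671 CPM in WT, and their part in the members' values was not tested. HepKO and KO females on WDA differed in 0 of 10 members by edgeR beside 0.0162% of all genes. There were 0 at an unadjusted p under 0.05 beside 5.74%, and 0 by DESeq2 beside 0.308%.

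For stage, 3 of 10 members passed in KO females beside 20.4% of all genes, 2 of 10 in WT males beside 11.0% of all genes (1 higher beside 4.99% and 1 lower beside 5.98%), and 0 of 10 in WT females and KO males, where 0% of genes were called. In KO females 5 of 10 members did not overlap between stages beside 40.4% of all genes, and 3 of 10 in WT males beside 36.0%. At an unadjusted p under 0.05, KO females had 3 members beside 35.8% of all genes and WT males 3 beside 30.6%. WT females had 1 member at an unadjusted p under 0.05 beside 13.6%, and KO males 1 beside 6.43%. DESeq2 called 1 in WT females (*Celsr1*) beside 3.07% of all genes, and 0 in KO males beside 0.620%. The median log2 fold change of the 10 members was -0.07 in KO females and -0.19 in WT males, against 0.01 and 0.02 over all genes tested. The 3 members called in KO females, *Rnf43*, *Axin2* and *Tbx3*, all fell, beside 10.2% of all genes called lower. There *Glul*, *Oat*, *Rspo3* and *Wnt2* had log2 fold changes between -0.04 and 0.29, *Lgr5* -0.11, *Celsr1* -0.10 and *Znrf3* 0.13. Since the count at an unadjusted p under 0.05 was near the share of all genes, no result about the pathway is drawn.

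The 5 livers with the highest cholangiocyte markers held the widest spread of the pericentral members. In WT WDA female 7, *Glul* was 170 CPM against 1003 and 1149 CPM in its group mates, *Oat* 194 against 1929 and 1869 CPM, *Tbx3* 9.69 against 43.5 and 39.8 CPM, and *Wnt2* 1.02 against 3.09 and 3.68 CPM. KO WDA male 17 had 225 CPM of *Glul*, 340 CPM of *Oat* and 1.14 CPM of *Wnt2*, each the lowest of its group. In the remaining 3 livers *Glul* was 467, 601 and 854 CPM, again the lowest of each group. *Celsr1* was 1.14, 2.06 and 1.10 times the mean of its mates in WT WDA female 7, KO WDA male 17 and WT Res female 13, and 0.796 and 0.762 times in WT Res male 9 and KO Res male 5.

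Of 24 pericentral hepatocyte genes, which include *Glul*, *Oat*, *Lgr5*, *Axin2* and *Tbx3*, 23 were under both group mates in WT WDA female 7, 21 in KO WDA male 17, 19 in WT Res female 13, 20 in WT Res male 9 and 17 in KO Res male 5. The share of all 12703 genes under both mates in these livers was 43.2%, 41.7%, 37.1%, 40.2% and 32.7% in that order. Of 22 periportal genes, 13, 12, 4, 4 and 7 were under both mates. General hepatocyte markers, not chosen by zone, were under both mates for 9, 7, 8, 8 and 4 of 10 genes. These are descriptions of single livers, with no test.

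**Figure D4:**
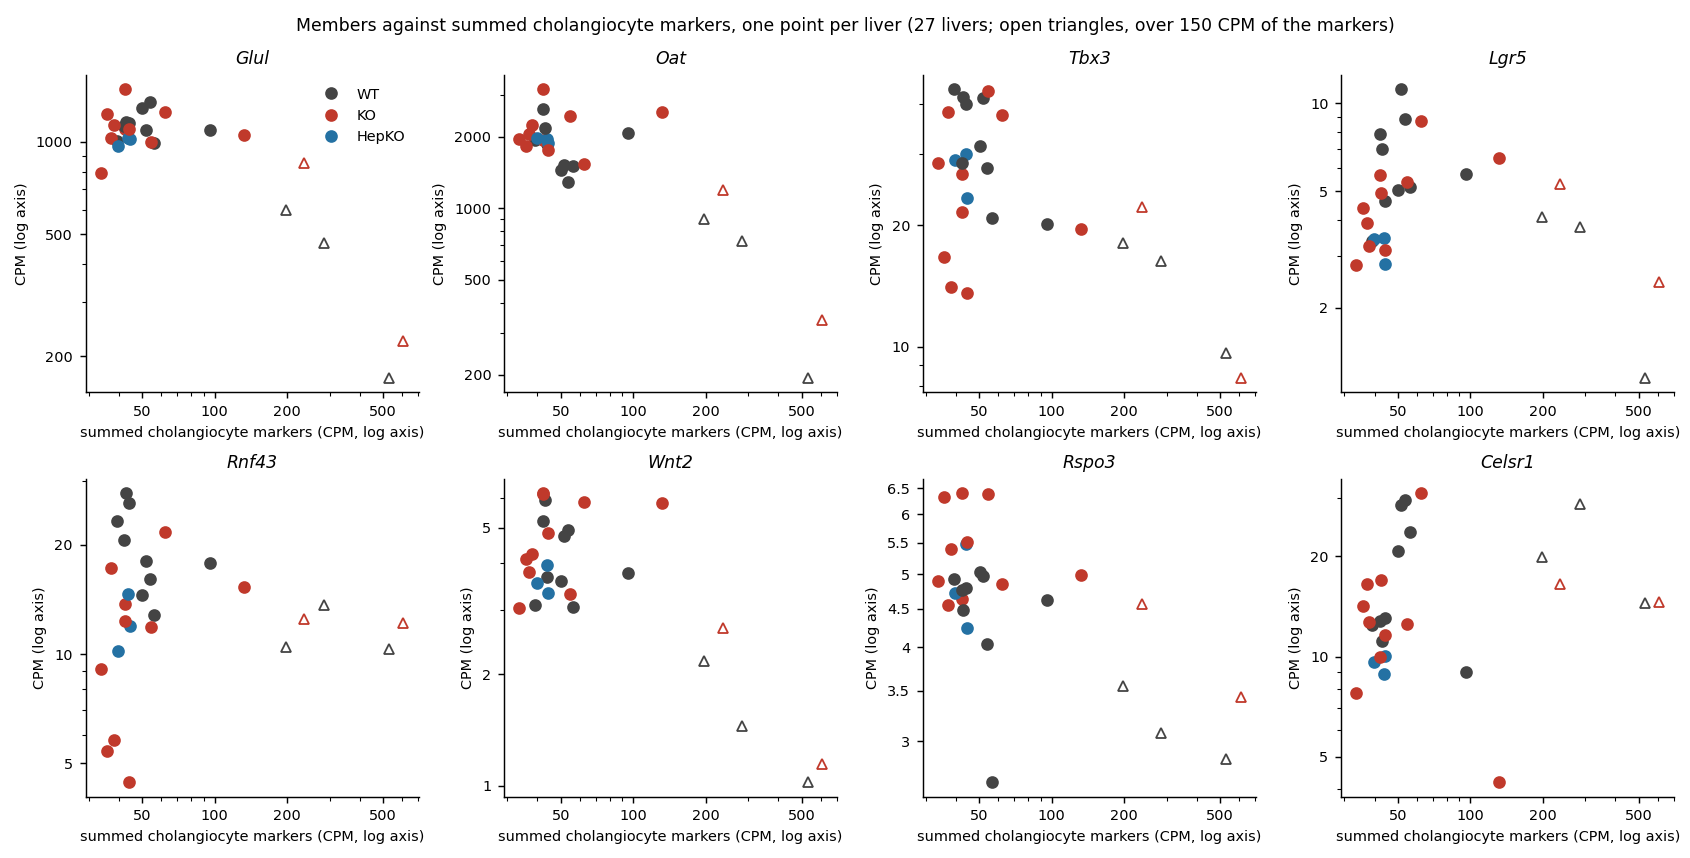
CPM of 8 members (log axis) against the summed CPM of 10 cholangiocyte markers (log axis), 1 point per liver (27 livers; grey WT, red KO, blue HepKO; open triangles, the 5 livers over 150 CPM). *Glul*, *Oat* and *Wnt2* are lowest in the 2 livers over 500 CPM of the markers, and *Rnf43* is lowest in 3 KO livers under 50 CPM.

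Across all 27 livers, after each group's mean was subtracted, several pericentral members rose and fell together, and for some pairs this rested on the 5 livers. *Glul* and *Oat* correlated at Pearson r = 0.95 and Spearman rho = 0.80 (permutation within groups, p = 0.00382 and 0.00508, adjusted over 45 pairs 0.0132 and 0.0163). Without the 2 livers farthest from the *Glul* median r was 0.72, and without the 5 livers it was -0.10 (22 livers, permutation p = 0.695). *Tbx3* with *Glul* went from 0.86 to 0.20 and *Oat* with *Wnt2* from 0.83 to -0.35. For 17 of 45 pairs the adjusted permutation p was under 0.05 in 27 livers, and for 1 of 45 in 22 livers, where the group means were taken again and fewer livers entered. Pairs with r over 0.5 numbered 20 in 27 livers and 14 in 22.

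Some pairs kept a positive r in the 22 livers without passing the adjusted test. *Lgr5* with *Wnt2* was 0.91 in 27 livers (rho = 0.90) and 0.81 in 22 (rho = 0.81, permutation p = 0.00697, adjusted 0.105), and *Glul* with *Wnt2* was 0.92 (rho = 0.87) and 0.65 (rho = 0.62, permutation p = 0.0142, adjusted 0.155). *Rnf43* with *Lgr5* was 0.75 (rho = 0.76) and 0.65 (rho = 0.64, permutation p = 0.0231, adjusted 0.155). The one pair that passed in 22 livers was *Glul* with *Celsr1*, at r = 0.92 and rho = 0.87 (permutation, adjusted p = 0.0455 and 0.0301), although it was -0.18 in all 27, so it rested on leaving livers out. *Axin2* had no r over 0.50 with any member in either set, and *Znrf3* none in 27 livers.

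**Figure D5:**
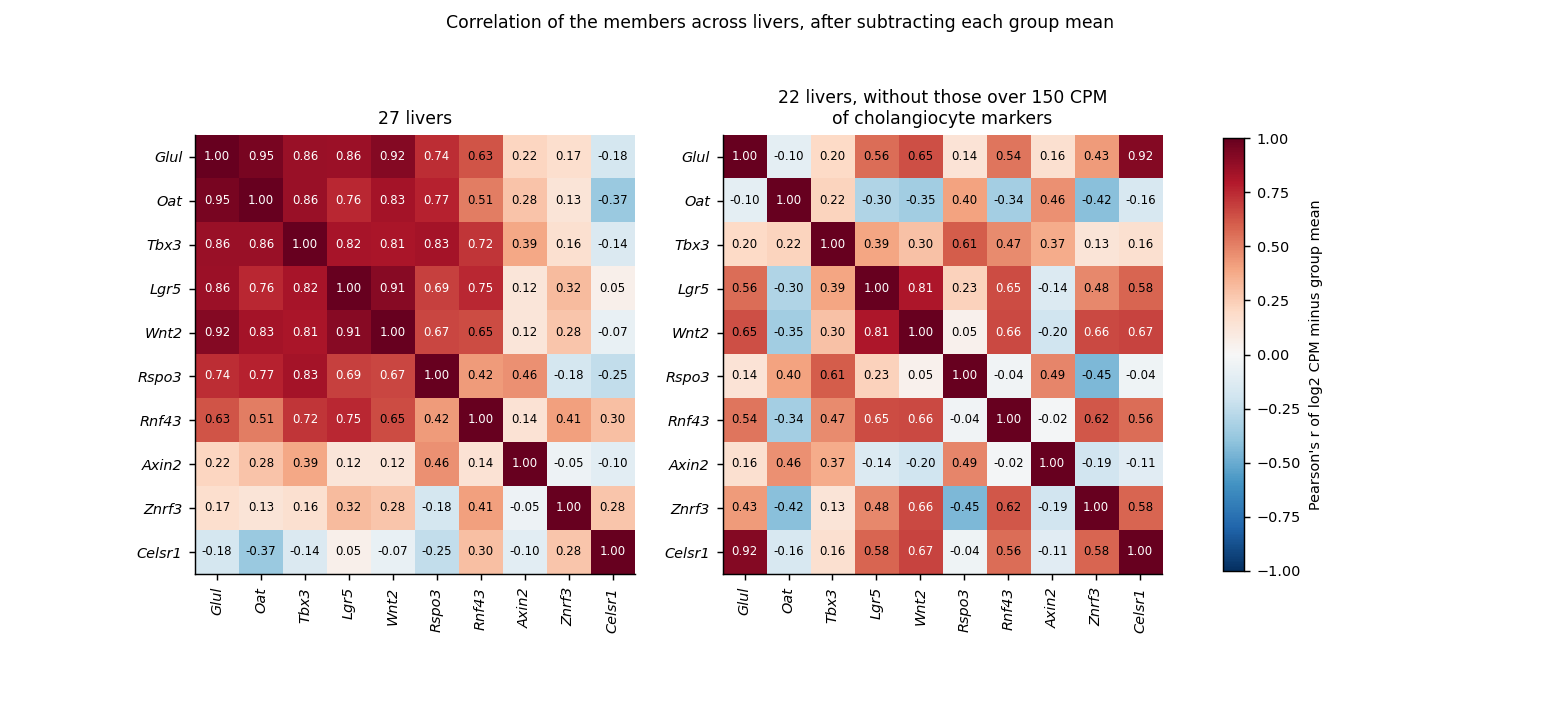
Pearson's r between the members across livers, after subtraction of each group's mean log2 CPM, in all 27 livers (left) and in the 22 livers without those over 150 CPM of cholangiocyte markers (right). The block of high values among *Glul*, *Oat*, *Tbx3*, *Lgr5*, *Wnt2* and *Rspo3* on the left is broken up on the right, where *Glul* with *Oat* is -0.10 and *Lgr5* with *Wnt2* is 0.809.

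Among 10991 genes, those closest to *Glul* over the 27 livers included *Slc1a2*, a glutamate transporter (r = 0.97), *Ugt1a6a*, *Hsd11b1* and *Rfx4* (0.96 each). In the 22 livers these had r between 0.19 (*Hsd11b1*) and 0.52 (*Ugt1a6a*). Closest to *Wnt2* were *Wdtc1* (0.94), *Slc17a2*, *Sdr9c7*, *Pcsk6* and *Pex5* (0.93 each), with 0.63 to 0.84 in the 22 livers. Those closest to *Rnf43* were *Hjurp* (0.84), *Pcyox1*, *Foxa1*, *Slc17a3* and *Ppara* (0.82 to 0.83), and here the 22 livers gave 0.72 to 0.83. *Axin2* had *Vps50*, *Fbxo38*, *Dock9*, *Mettl14* and *Secisbp2* as its nearest genes, at 0.65 to 0.70, and 0.61 to 0.86 in the 22 livers. These values are descriptions over livers that share library depth and scaling.

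Other genes of the pathway were called with stage. Of 20 genes of Wnt signal transduction, 19 were tested in KO females, where 4 rose and 2 fell in Res beside 10.2% of all genes in each direction, and the median log2 fold change was 0.08 against 0.01 over all genes. The T-cell factor *Tcf7* rose by 1.23 ± 0.21 (adjusted p = 0.00462, edgeR) and *Porcn*, which acylates Wnt ligands for secretion, by 0.66 ± 0.18 (adjusted p = 0.0317). *Apc* and *Gsk3b* of the destruction complex rose by 0.41 ± 0.12 and 0.39 ± 0.12. *Ctnnb1*, beta-catenin itself, fell by 0.39 on the log2 scale (SE 0.11, adjusted p = 0.0298), and its co-activator *Pygo2* fell by 0.71 (SE 0.14, adjusted p = 0.0102).

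Over all 24 mice the same list held 5 genes that rose and 2 that fell of 20 tested, beside 14.1% and 15.7% of all genes, with a median of 0.12 against 0.00 over all genes. *Tcf7* (0.58 ± 0.13), *Porcn* (0.51 ± 0.14), *Apc* (0.31 ± 0.06), *Gsk3b* (0.23 ± 0.06) and *Axin1* (0.21 ± 0.06) rose, and *Ctnnb1* (-0.30 ± 0.05) and *Pygo2* (-0.26 ± 0.08) fell, with adjusted p from 0.00047 to 0.0164 by edgeR. In WT males *Dvl2* was the one gene called, at 0.91 ± 0.24 (adjusted p = 0.0483).

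Of 19 Wnt ligands, 14 were listed and 7 tested in KO females. There *Wnt11* rose by 4.15 ± 0.66 (adjusted p = 0.00385, edgeR) and *Wnt4* by 0.84 ± 0.26 (adjusted p = 0.0455), beside 10.2% of all genes called higher. Over 24 mice *Wnt11* rose by 1.94 ± 0.73 (adjusted p = 0.0494, edgeR), beside 14.1%. *Wnt11* rests on few reads, 3, 0 and 2 in KO WDA females against 29, 47 and 18 in KO Res females. Only Res livers reached the minimum count of 10, so *Wnt11* passed the filter through the livers where it was high. Its size and its calls therefore carry no weight. The other 9 Res livers had 0 to 15 reads of *Wnt11*, the 15 being KO Res male 5. Among R-spondins and their receptors, *Lgr4* rose by 0.53 ± 0.11 in KO females (adjusted p = 0.0129) and by 0.45 ± 0.10 over 24 mice (adjusted p = 0.00277), where *Rnf43* fell. No Frizzled or co-receptor gene was called in these 2 comparisons (10 and 12 tested by edgeR), beside 20.4% and 29.8% of all genes. At an unadjusted p under 0.05 there were 3 and 1, beside 35.8% and 40.7% of all genes. *Fzd7* fell by 0.42 on the log2 scale in WT males (SE 0.11, adjusted p = 0.0488, edgeR), where 5.98% of all genes were called lower.

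Of 16 Wnt antagonists, 5 were tested in KO females. *Dkk3* rose by 1.43 ± 0.18 (adjusted p = 0.0019, edgeR) and *Nkd1*, a feedback inhibitor, by 0.53 ± 0.16 (adjusted p = 0.0409), while *Sfrp1* fell by 1.63 (SE 0.48) and *Tnfrsf19* fell by 1.41 (SE 0.37). In each direction 10.2% of all genes were called. *Sfrp1* had 22, 11 and 33 reads in KO WDA females and 5, 9 and 7 in KO Res females. It passed the filter only through the WDA group, where it was high, so its call carries no weight. Over 24 mice *Sfrp5* rose by 2.35 ± 0.61 (adjusted p = 0.00687) and *Tnfrsf19* fell by 0.99 (SE 0.21, adjusted p = 0.0018). There 14.1% of all genes were called higher and 15.7% lower. *Sfrp5* had 3 to 36 reads in the 5 livers and 0 to 8 in the other 22, and the part of those livers in its value was not tested. It reached the minimum count of 10 only in WT Res female 13 (36 reads), WT Res male 9 (20 reads) and KO Res male 5 (17 reads). *Sfrp5* therefore passed the filter only through Res livers where it was high, and its call carries no weight. In planar polarity, *Scrib* rose by 0.61 ± 0.14 in KO females (adjusted p = 0.0143), where *Celsr1* did not pass. Over 24 mice *Scrib* rose by 0.39 ± 0.08, as did *Celsr1*, and these were the 2 of 13 tested genes called. Of all genes, 14.1% were called higher there.

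The pericentral list was mixed. In KO females 5 of 24 genes rose and 6 fell in Res, beside 10.2% of all genes in each direction, with a median log2 fold change of -0.05. *Cyp27a1* (1.07 ± 0.10) and *Cyp1a2* (0.89 ± 0.14), both cytochromes, *Cyp2a5* (0.83 ± 0.24), *Cyp2c37* (0.54 ± 0.12) and the glutamate transporter *Slc1a2* (0.35 ± 0.11) rose, whereas the Wnt target *Sp5* (-1.10 ± 0.28), *Tbx3*, the claudin *Cldn2* (-0.91 ± 0.13) and *Axin2* were among those that fell, all by edgeR. Of 22 periportal genes, 5 rose and 5 fell, with a median of 0.24, led by the deaminase *Sds* (1.26 ± 0.18) and the apolipoprotein *Apoa4* (-2.13 ± 0.33). Macrophage markers moved with these groups, 4 of 10 being higher in Res, and 3 of 10 hepatocyte markers were higher, and their part in these values was not tested.

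In WT males 1 pericentral gene rose (*Cyp27a1*, 0.48 ± 0.12) and 6 of 24 fell, beside 4.99% and 5.98% of all genes, with a median of -0.24. Those that fell included *Lhpp* (-1.17 ± 0.12), *Cldn2* (-1.0 ± 0.13), *Oat* and *Cyp7a1*, the rate-limiting enzyme of bile acid synthesis (-0.79 ± 0.13). Periportal genes there rose and fell in equal number, 3 each of 22, and the cholangiocyte marker *Sox9* rose by 1.95 ± 0.34 (adjusted p = 0.0154, edgeR). Of 8 lymphocyte markers 3 were higher and 1 lower in WT males, beside the same 4.99% and 5.98% of all genes. Over 24 mice 6 of 8 lymphocyte and 4 of 15 endothelial markers were higher, beside 14.1% of all genes. The part of these markers in the values above was not tested. Over all 24 mice 1 of 24 pericentral genes rose and 4 fell, beside 14.1% and 15.7% of all genes. Among those that fell were *Cldn2* at -0.82 ± 0.15, *Slc1a4* at -0.85 ± 0.22 and *Sp5* at -0.80 ± 0.29.

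Between the sexes, 0 of 10 members were called over 24 mice by edgeR beside 11.3% of all genes, and 0 by DESeq2 beside 13.5%. At an unadjusted p under 0.05 by edgeR there were 3 (*Rnf43*, *Znrf3* and *Lgr5*) beside 24.5% of all genes. The log2 difference of *Rnf43*, males from females, was 0.39 ± 0.15 (adjusted p = 0.108). Of the other lists, *Pygo1* was lower in males (log2 fold change -2.12 ± 0.31, adjusted p = 0.000103), *Wnt5b* was higher by 0.82 ± 0.14 (adjusted p = 0.000785), and the pericentral *Cyp7a1* and *Aldh1a1* were higher by 1.14 ± 0.28 and 0.76 ± 0.20.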

How the data were processed

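Total RNA of whole liver was sequenced, and the authors deposited 4 tables that list, for every gene and mouse, an estimated count of reads and an FPKM value, estimated counts being made by the authors from their aligned reads before deposit. The submitters' processing notes name HISAT, Bowtie2 and GRCm38.p6, and the tool that counted reads and its version are not given in the sources used here. Estimated counts were rounded to whole numbers and tested with edgeR 4.0.16 in R 4.3.3 (quasi-likelihood F test, filterByExpr with a minimum count of 10, TMM scaling, Benjamini-Hochberg adjustment over all genes tested, threshold 0.05), each comparison on its own groups. SE was the absolute log2 fold change divided by the square root of F. CPM per mouse were put on 1 TMM scale over 27 libraries, and the deposited FPKM served only to compare genes with one another. Wnt genes, zone markers and cell type markers came from lists. Of a list, called genes were named by size of change, at most 5 in each direction. Some genes that this rule names are not reported here. *Wnt11*, *Sfrp1* and *Sfrp5* reads per liver were added after their values were seen. The members and lists were chosen with earlier results of these data known. Each library is a separate mouse per the labels. Alternatives were RLE scaling, DESeq2 1.42.0, no filter, a spread shared by 9 groups, each mouse left out in turn and, added after seeing the data, library totals and omission of the 5 livers. Scripts were tested on simulated data.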

Additional observations from a re-analysis of the deposited data

Results flagged for a closer look

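*Tbx3* had stage effects of opposite sign in KO mice of the 2 sexes, and only the one in females passed. Every KO Res female was below every KO WDA female, where 40.4% of all genes did not overlap. Every KO Res male was above every KO WDA male, where 12.9% did not overlap. The nearest male values were 21.6 and 22.1 CPM, and the lowest, 8.39 CPM, was KO WDA male 17, one of the 5 livers. The log2 fold change of Res against WDA was -1.08 in KO females (adjusted p = 0.00328, edgeR) and 1.06 in KO males (adjusted p = 0.686, edgeR). The difference between the 2 was not tested within KO mice. In WT mice it was -0.24 in females and -0.21 in males, with overlapping groups. Averaged over both vectors, the difference between the sexes was -1.08 ± 0.45 (females minus males, adjusted p = 0.603, edgeR) and -1.22 ± 0.27 without the 5 livers (adjusted p = 0.0325).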

How the results depend on the processing

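Only the 33 member results with an unadjusted p under 0.05 in the main edgeR fit were recomputed, mostly on nearly the same mice. A turn of direction was therefore unlikely from the start, and the other member results were not covered. No direction turned in the 605 recomputed values: 574 stayed on the same side of the threshold or within the spread, 14 lost and 13 gained the call, and 4 moved. Of 94 counts of members called under other settings, 85 were within 1.5 times, and a count of 0 that stayed at 0 was placed among these. The main count was above 0 only for stage in WT males, in KO females and averaged over sex and vector, so this says little about the rest. With DESeq2 the count went from 0 to 2 for KO against WT in Res females (591 genes called in all, 4.70%). It went from 0 to 1 for Res against WDA in WT females (3.07% of all genes) and for the KO effect by sex in Res (0.592%). With a spread shared by all 9 groups it went from 0 to 1 for KO against WT in Res females, from 2 to 0 for stage in WT males and from 3 to 1 for stage in KO females. Without the 5 livers it went from 0 to 2 for HepKO against WT, and from 0 to 1 for males against females and for stage by sex. Leaving out 1 mouse gave 0 to 2 for KO against WT in Res females (2 without WT Res female 1), 0 to 2 for stage in WT males (0 without WT WDA male 20 or 21, 1 without WT WDA male 19 or WT Res male 8), 0 to 2 for HepKO against WT (2 without WT WDA female 7), 0 to 1 for the KO effect by sex in Res (1 without WT Res female 1) and 0 to 1 for males against females (1 without WT Res female 12). Apart from the shares given with single results above, the share of all genes called is not set beside these counts. A shift of the members alone therefore cannot be told from a shift of all genes. The causes were not tested. Library totals without scaling factors put the median log2 fold change of all genes between 0.21 (KO against WT in WDA males) and -0.23 (KO effect by sex in Res). The members' counts there stayed at 0 or within 1.5 times.

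KO WDA and KO Res females were labelled with different lengths of feeding and times of the vector, and their title prefixes differ. A shared mouse number was therefore not taken to pair them. With that number as a replicate block, stage in KO females gave 3 members, as without it. Since the block rests on a number not known to pair mice, this fit cannot add weight to the calls. Same-numbered mice of the 2 groups correlated at -0.10 (mouse 2) and 0.02 (mouse 3) over 1000 genes. Counts of 23 to 112 reads limit *Wnt2* and *Rspo3*.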
